A study of Mus musculus with 9 samples.

Results

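The genes of 10 ion channel proteins that open in response to membrane stretch or to a change of cell volume were followed in B16 cells, a mouse melanoma cell line cultured on flexible PDMS film. The genes were chosen by symbol and are Piezo1, Tmem63a, Tmem63b, Trpv2, Trpv4, Trpm7, Kcnk2, Pkd1, Pkd2 and Lrrc8a. All 10 were found among the 22972 gene names that the authors list. RNA sequencing was analyzed in 9 libraries, 3 in each of 3 groups, and the cells of all groups were labelled wild type and collected on day 3. CTL cells were not strained. MS cells were strained cyclically for 72 h through the film. The cells of the last group were given blebbistatin, an inhibitor of the myosin II motor, at 100 ng/mL for 72 h. The sample labels of this group name blebbistatin alone, whereas the paper describes straining together with the inhibitor, and the group is called Blebb. here. All libraries come from 1 cell line, and the labels number them as parallel experiments without naming separate cultures. The p-values below therefore measure only the spread between these libraries, which may be technical.

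PIEZO channels are large trimers that open when the lipid membrane is pulled tight and let calcium and other cations into the cell. TMEM63 proteins, also called OSCA, are cation channels gated by membrane tension, and KCNK2, also called TREK-1, is a potassium channel that stretch opens. TRPV2, TRPV4 and TRPM7 are cation channels of the TRP family for which mechanical or osmotic sensitivity has been described, and PKD1 and PKD2 are the polycystins, which form a receptor and channel complex. LRRC8A is the obligatory subunit of the volume-regulated anion channel, through which swollen cells lose chloride and organic osmolytes.

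The authors gave each gene an FPKM value, which counts fragments relative to the length of the gene and to all mapped fragments, so that levels of different genes can be set side by side within a library. Pigment cell markers fitted the label of melanoma cells, since all 7 of them were expressed, with Pmel at up to 6318 FPKM, while the markers of fibroblasts, keratinocytes and endothelium stayed at or below 0.180 FPKM. The macrophage list held 1 gene above 1 FPKM, Cd68, which reached 2.84 FPKM, while Ptprc was listed at 0 in every library. Summed over its 6 genes, the macrophage list was between 1.59 and 2.15 FPKM in CTL, between 1.72 and 2.84 FPKM in MS and between 1.94 and 2.51 FPKM in Blebb. A total of 3 libraries, CTL replicate 1, MS replicate 3 and Blebb. replicate 2, stood apart from the other 6. The summed level of 8 stress response genes was between 766 and 1042 FPKM in them and between 337 and 520 FPKM in the others. Taken singly, Atf3 and Psat1 of this list overlapped between these libraries and the others, and the rest of the list did not. The split was fixed beforehand, and the stress list was made for libraries that stand apart. These values therefore describe the split and do not test it. On the first principal component over all genes tested, which held 70.1% of the variance, MS replicate 3 was at -11.3. That was closer to Blebb. replicate 1 at -5.95 than to CTL replicate 1 at -40.5 or Blebb. replicate 2 at -43.1. In bulk RNA, fewer cells that express a gene and less of its RNA in each cell cannot be told apart.

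The 10 channel genes spanned a wide range of levels. Tmem63b was the most abundant, followed by Trpv2, Piezo1 and Tmem63a, and these 4 had means above 10 FPKM. Pkd1, Lrrc8a, Pkd2 and Trpm7 lay between 1 and 10 FPKM, and Trpv4 and Kcnk2 were below 1 FPKM. The mean over the 9 libraries was 47.0 FPKM for Tmem63b, with a lowest value of 41.1 FPKM in MS replicate 1 and a highest value of 55.2 FPKM in Blebb. replicate 2. Trpv2 had a mean of 38.6 FPKM, from 30.6 to 49.3 FPKM. Piezo1 had a mean of 31.0 FPKM, from 21.8 to 43.0 FPKM. Tmem63a had a mean of 20.8 FPKM, from 15.5 to 25.6 FPKM.

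The order of the levels was compared within each library, as the ratio of each gene to the next gene in the order, by an exact two-sided sign-flip permutation test over 9 libraries. Of the 8 neighbouring pairs among the 9 genes above 0 in every library, 7 differed, with Benjamini-Hochberg adjusted p between 0.00625 and 0.0134 (exact permutation). The smallest unadjusted p that 9 libraries allow is 0.00391. The order was taken from the same 9 libraries, with the groups pooled. These p-values therefore describe only how steadily a ratio repeats, and a bias shared by all libraries would repeat as well. Tmem63b was higher than Trpv2 in 9 of 9 libraries, by 1.23 times as a geometric mean. Trpv2 was higher than Piezo1 in 9 of 9 libraries by 1.25 times, although the ratio was only 1.01 in CTL replicate 1. Piezo1 was higher than Tmem63a in 9 of 9 libraries, by 1.48 times. Tmem63a was higher than Pkd1 by 2.09 times and Pkd1 higher than Lrrc8a by 1.54 times, both in 9 of 9 libraries. Pkd2 and Trpm7 did not differ beyond their spread, since Pkd2 was the higher gene in 6 of 9 libraries (exact permutation p = 0.164). Without the 3 libraries that stood apart, 6 of 8 pairs differed, at an adjusted p of 0.0417 each (exact permutation), and Trpm7 then ranked above Pkd2. Ratios of 2 genes depend on the fragments assigned to each of them. The annotated exons of Piezo1 share 24.6% of their bases with Ctu2 on the opposite strand, and those of Lrrc8a share 68.3% with 1700084E18Rik on the opposite strand and Gm28035 on the same strand. Strand was not named for the counting. In this respect alone, these levels are less certain than those of Trpv2, Trpm7 and Pkd2, whose exons share none. The values of Trpv2, Trpm7 and Pkd2 in turn followed the dependence of the libraries on gene GC content, described further on. Their r with its size in each library was 0.97, -0.93 and -0.95 over 9 libraries. This was not particular to them, since the same r was 0.93 for Tmem63b, 0.88 for Tmem63a, 0.79 for Piezo1 and 0.68 for Pkd1. For Lrrc8a it was -0.30 over 9 libraries and 0.78 over the 6 without those that stood apart.

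**Figure D1:**
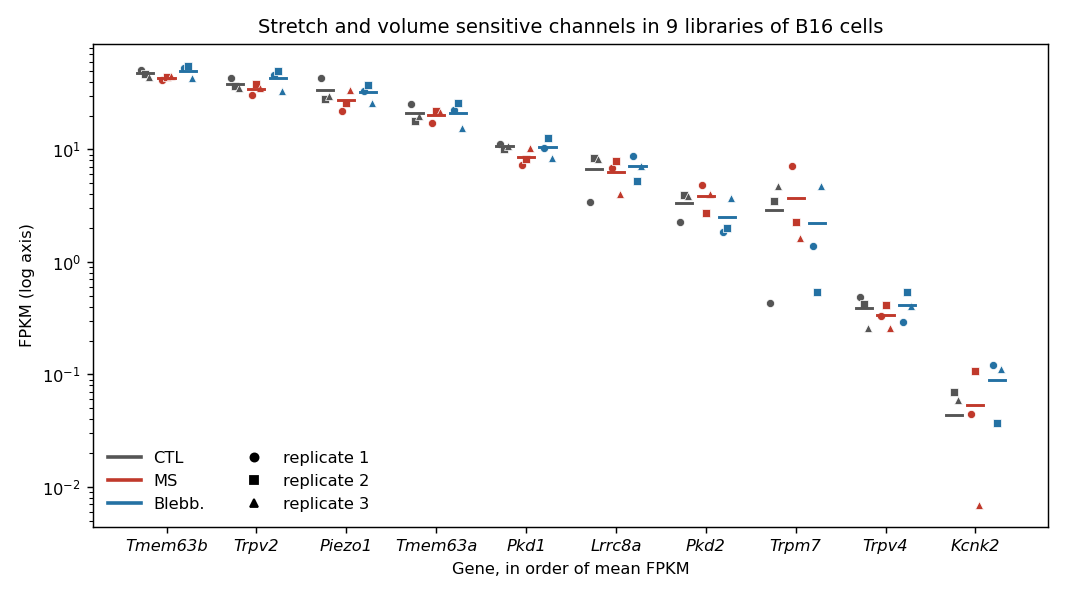
FPKM of the 10 channel genes on a log axis, in order of mean level. Each point is a library, the shape gives its replicate number, the colour its group and the short bars the group means (n = 3). The value of 0 for Kcnk2 in CTL replicate 1 cannot be drawn on a log axis. The groups overlap for each gene, and the points of Trpm7 spread more widely within groups than those of the genes above it.

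Upstream sequences of 4 of the genes are shown, because Trpm7 lay on the opposite side of its mean from Piezo1 and Trpv2 in most libraries and Lrrc8a was low in the 3 libraries that stood apart, as described further on. RefSeq start sites on GRCm38.p6 were matched for all 10 genes, and the 250 bases before the start are given 5′ to 3′ on the strand of the gene. Capitals mark matches on either strand to the GC box GGGCGG or the E-box CACGTG. Piezo1 lies on chromosome 8 and its window is chr8:122551330-122551579 on the minus strand. Trpv2 lies on chromosome 11, with a window of chr11:62574236-62574485 on the plus strand. Trpm7 and Lrrc8a both lie on chromosome 2, with windows of chr2:126876262-126876511 on the minus strand and chr2:30237519-30237768 on the plus strand.
Piezo1: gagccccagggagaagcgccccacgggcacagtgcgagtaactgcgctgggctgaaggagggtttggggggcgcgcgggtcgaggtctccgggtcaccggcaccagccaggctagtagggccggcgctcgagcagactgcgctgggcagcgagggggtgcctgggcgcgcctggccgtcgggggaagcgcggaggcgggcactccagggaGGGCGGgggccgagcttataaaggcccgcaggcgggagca
Trpv2: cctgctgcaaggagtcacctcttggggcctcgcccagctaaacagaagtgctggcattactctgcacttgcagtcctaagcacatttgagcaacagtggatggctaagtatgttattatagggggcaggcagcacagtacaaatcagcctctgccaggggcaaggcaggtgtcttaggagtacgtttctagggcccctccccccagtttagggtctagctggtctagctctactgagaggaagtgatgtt
Trpm7: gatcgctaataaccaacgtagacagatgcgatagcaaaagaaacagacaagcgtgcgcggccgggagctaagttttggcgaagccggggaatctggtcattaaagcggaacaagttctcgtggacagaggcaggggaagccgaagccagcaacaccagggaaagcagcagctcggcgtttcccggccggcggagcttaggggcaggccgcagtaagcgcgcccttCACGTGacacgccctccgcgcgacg
Lrrc8a: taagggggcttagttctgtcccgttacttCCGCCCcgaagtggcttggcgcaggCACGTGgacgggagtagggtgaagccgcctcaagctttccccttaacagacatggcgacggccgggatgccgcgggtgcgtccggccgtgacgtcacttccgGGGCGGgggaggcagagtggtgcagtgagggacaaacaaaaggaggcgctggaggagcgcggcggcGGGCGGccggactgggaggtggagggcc
The window of Piezo1 had a GC content of 74.0% and 26 CpG sites, and that of Lrrc8a 68.0% and 25 CpG sites. The window of Trpm7 had 60.4% and 26 CpG sites, and that of Trpv2 53.2% and 2 CpG sites. The median over 32851 RefSeq windows of this length was 52.4%. The GC box was present in 6 of the 10 channel genes and in 32.7% of all windows. The E-box was present in 2 of the 10, Trpm7 and Lrrc8a, and in 6.02% of all windows. Pkd2 lay on the same side of its mean as Trpm7 in most libraries. Its window, which is not shown, held neither the GC box nor the E-box. The M-box core CATGTG was present in Tmem63a alone among the 10 and in 12.3% of all windows. The letters CATTCC, which TEAD factors bind, were present in Kcnk2 and Pkd2 and in 12.6% of all windows. The element TTGCATCA, which ATF4 binds, was present in 0 of the 10 and in 0.791% of all windows. None of these motifs contains another, and a match describes the sequence only.

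The question of straining was addressed by MS against CTL. In this comparison, Piezo1 was measured at 43.0, 28.0 and 29.8 FPKM in CTL replicates 1 to 3 and at 21.8, 26.1 and 33.8 FPKM in MS replicates 1 to 3. The highest MS value was above both of the lower CTL values, so that the groups overlapped. Fitted on the log2(FPKM + 1) scale, the difference, called log2FC here, was -0.29 with its standard error (SE) at 0.22 (adjusted p = 1.00, limma). Its 95% interval reached from 0.578 to 1.16 as a fold, and the log2FC was -0.10 without CTL replicate 1 and -0.45 without MS replicate 3. Pkd1, which encodes the large polycystin, was at 11.1, 10.2 and 10.7 FPKM in CTL and at 7.33, 8.19 and 10.3 FPKM in MS. MS replicate 3 lay within the CTL range, while the other 2 MS libraries were below it. The log2FC of Pkd1 was -0.29 (SE 0.17), and its unadjusted p of 0.128 was the smallest among the 8 channel genes tested (adjusted p = 1.00, limma).

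Of the 8 channel genes averaging at least 1 FPKM, 0 had an adjusted p under 0.05 in MS against CTL (limma with Benjamini-Hochberg adjustment over 10109 genes), as did 0% of all genes tested. Before adjustment, 0 of 8 had a p under 0.05, against 0.158% of all genes. The groups were separated without overlap for 0 of 8, against 3.17% of all genes. The fitted log2FC was above 0 for 2 of 8, Trpm7 and Pkd2, and below 0 for the other 6, while 49.5% of all genes were above 0. The median over the 8 was -0.083, and that over all genes tested was -0.0018. With the 3 libraries that stood apart placed in a block of their own, Piezo1 and Pkd1 had an unadjusted p under 0.05, as had 124 of all 10109 genes, and 0 of 8 passed after adjustment. With the GC trend removed as well, a dependence of each library on gene GC content described further on, 0 of 8 had such a p, and the smallest was 0.0592 (limma). Without those libraries the values were -0.27 for Piezo1 and -0.39 for Pkd1.

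Values of the remaining tension-gated and TRP channels lay in overlapping ranges in MS and CTL. Tmem63b was at 50.8, 47.2 and 44.3 FPKM in CTL and at 41.1, 44.3 and 44.8 FPKM in MS, with a log2FC of -0.12 and a 95% interval from 0.752 to 1.12 as a fold. Tmem63a was at 25.5, 17.7 and 19.7 FPKM in CTL and at 17.3, 22.0 and 21.4 FPKM in MS, with a log2FC of -0.041. Trpv2 was at 43.5, 36.7 and 35.0 FPKM in CTL and at 30.6, 37.8 and 35.2 FPKM in MS, with a log2FC of -0.15. Each of these 3 overlapped between the groups, with an adjusted p of 1.00 (limma). The value of Tmem63a was 0.10 without CTL replicate 1 and -0.15 without CTL replicate 2. Removing the GC trend brought Tmem63b to -0.033 and Trpv2 to -0.082. Piezo1 was then at -0.19 and Pkd1 at -0.20.

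Trpm7 encodes a channel fused to a protein kinase, which carries magnesium, calcium and zinc. It was at 0.435, 3.50 and 4.75 FPKM in CTL and at 7.09, 2.28 and 1.62 FPKM in MS. Both groups held low and high libraries, and the highest value of all 9 was 16.3 times the lowest. The fitted log2FC was 0.30 (SE 0.66), and its 95% interval from 0.440 to 3.45 as a fold leaves a change of either direction possible (adjusted p = 1.00, limma). Without CTL replicate 1 the value was -0.31, and without CTL replicate 3 it was 0.69. Removing the GC trend brought it to 0.080, and leaving out the 3 libraries that stood apart brought it to 0.018. Pkd2, the channel subunit of the polycystin pair, was at 2.28, 3.95 and 3.87 FPKM in CTL and at 4.80, 2.71 and 4.05 FPKM in MS, with a log2FC of 0.15 (SE 0.27). It was -0.042 without CTL replicate 1. Lrrc8a was at 3.43, 8.34 and 8.25 FPKM in CTL and at 6.81, 7.90 and 4.04 FPKM in MS, with a log2FC of -0.042 (SE 0.34). The low library of each group was one of the 3 that stood apart, and without CTL replicate 1 the value was -0.40, without MS replicate 3 it was 0.20.

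Trpv4 and Kcnk2 were under the minimum for the limma fit. Trpv4, an osmotically sensitive calcium channel, was at 0.490, 0.419 and 0.260 FPKM in CTL and at 0.327, 0.415 and 0.261 FPKM in MS. Kcnk2 was listed at 0 in CTL replicate 1, at 0.0700 and 0.0598 FPKM in the other CTL libraries and at 0.0449, 0.108 and 0.0069 FPKM in MS. For Trpv4 p was 0.5 and for Kcnk2 0.9 in exact two-sided permutation tests. The smallest p possible for 3 libraries a group is 0.1, and no difference of these genes could have passed the threshold.

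Blebb. against MS addressed the addition of the myosin inhibitor, as the paper describes the group. Piezo1 was at 33.0, 37.6 and 26.0 FPKM in Blebb. replicates 1 to 3. Its log2FC against MS was 0.24 (SE 0.22, adjusted p = 0.897, limma), and it was 0.098 without MS replicate 1. Trpv2 was at 45.6, 49.3 and 33.3 FPKM in Blebb., so that replicate 3 lay within the MS range and the others above it. Its log2FC was 0.29 (SE 0.17, adjusted p = 0.897, limma). Tmem63b was at 52.5, 55.2 and 42.7 FPKM in Blebb., with the same arrangement of libraries, and its log2FC was 0.20 (SE 0.13, adjusted p = 0.897, limma). Pkd1 was at 10.4, 12.7 and 8.45 FPKM, a log2FC of 0.26. Without Blebb. replicate 2 the log2FC was 0.18 for Trpv2, 0.12 for Tmem63b and 0.12 for Pkd1. Without Blebb. replicate 3 it was 0.45, 0.31 and 0.39 for the same genes. Tmem63a was at 22.3, 25.6 and 15.5 FPKM, with a log2FC of 0.040 that was -0.11 without Blebb. replicate 2 and -0.066 with the GC trend removed.

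Pkd2 and Trpm7 were the genes with values below 0 in this comparison. Pkd2 was at 1.85, 2.02 and 3.72 FPKM in Blebb., where the first 2 libraries were below all MS libraries and the third was within their range. The fitted log2FC was -0.47 (SE 0.27), and its unadjusted p of 0.112 was the smallest among the 8 genes (adjusted p = 0.897, limma). Trpm7 was at 1.38, 0.543 and 4.72 FPKM in Blebb., with a log2FC of -0.57 (SE 0.66). The value of Trpm7 was -1.10 without Blebb. replicate 3 and -0.087 without MS replicate 1. Lrrc8a was at 8.78, 5.23 and 7.18 FPKM, with a log2FC of 0.17 (SE 0.34) that was -0.073 without MS replicate 3.

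In Blebb. against MS, 0 of the 8 genes had an adjusted p under 0.05 (limma), and so had 0% of all genes tested. At an unadjusted p under 0.05 there were 0 of 8, against 1.25% of all genes, and 0 of 8 were without overlap, against 3.73%. The fitted log2FC was above 0 for 6 of 8, against 49% of all genes, and the median was 0.18 over the 8 and -0.0059 over all genes. Leaving out Blebb. replicate 3 gave 3 genes at an unadjusted p under 0.05, Pkd2, Tmem63b and Trpv2, while 934 of all 10109 genes then had such a p. After adjustment the number was 0. Removing the GC trend brought Piezo1 to 0.096, Tmem63b to 0.069, Trpv2 to 0.19, Pkd2 to -0.41 and Trpm7 to -0.23. Trpv4 was at 0.290, 0.538 and 0.407 FPKM in Blebb. and Kcnk2 at 0.121, 0.0369 and 0.111 FPKM. Against MS, p was 0.5 and 0.4 for these 2 genes in exact two-sided permutation tests, where 0.1 is the smallest possible.

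Blebb. against CTL shares its libraries with the comparisons above. The 8 log2FC values lay between -0.32 for Pkd2 (SE 0.27) and 0.14 for Trpv2 (SE 0.17), with an adjusted p of 1.00 for each (limma). After adjustment, 0 of 8 and 0% of all genes tested passed the threshold. Before adjustment, 0 of 8 had a p under 0.05, against 0.089% of all genes, and 0 of 8 were without overlap, against 2.08%. Values above 0 were found for 3 of 8, against 46% of all genes, and the median was -0.018 over the 8 and -0.013 over all genes. Piezo1 was at -0.049, with a 95% interval from 0.684 to 1.37 as a fold, and was 0.022 without the 3 libraries that stood apart. Trpv4 had a mean of 0.412 FPKM in Blebb. and 0.390 FPKM in CTL, and Kcnk2 of 0.0896 and 0.0433 FPKM (exact two-sided permutation tests, p = 0.8 and p = 0.3, with no p under 0.1 possible).

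**Figure D2:**
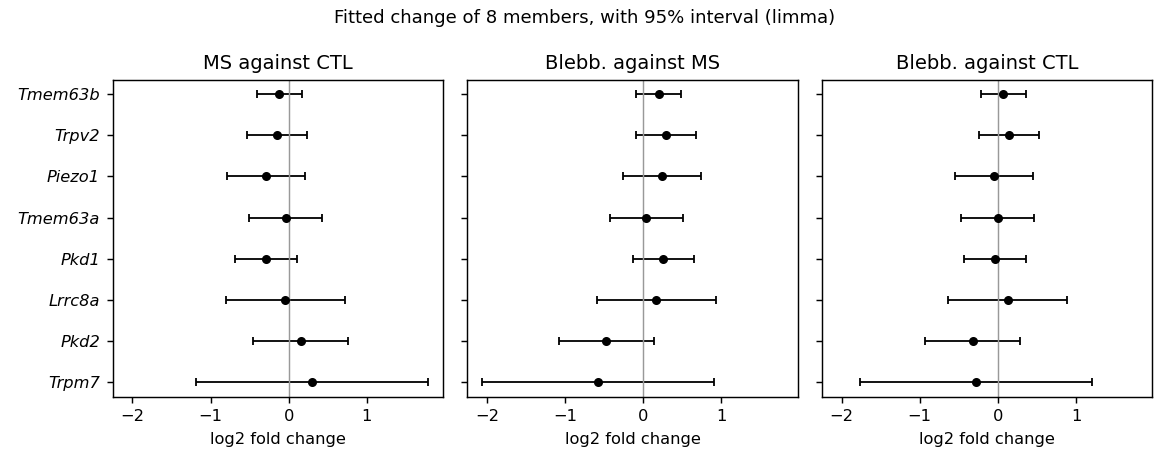
Fitted log2FC of the 8 channel genes averaging at least 1 FPKM, in the 3 comparisons. Points are the values and bars the 95% intervals from limma (3 libraries a group). Each interval includes 0, and that of Trpm7 is the widest, from -1.18 to 1.79 in MS against CTL.

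Libraries of the same group differed from each other, and the channel genes did not all follow the same libraries. Values are given here as the deviation of log2(FPKM + 1) from the mean of the gene over 9 libraries. In MS replicate 1, Trpm7 was at 1.27 and Pkd2 at 0.49, while Piezo1 was at -0.47, Pkd1 at -0.38 and Trpv2 at -0.31. In Blebb. replicate 2, Trpm7 was at -1.12 and Pkd2 at -0.45, while Trpv2 was at 0.36, Pkd1 at 0.35, Tmem63a at 0.31 and Piezo1 at 0.30. CTL replicate 1 had a like arrangement, with Trpm7 at -1.23 and Piezo1 at 0.49. In 7 of 9 libraries, Trpm7 and Pkd2 lay on the opposite side of their means from Piezo1 and Trpv2. The exceptions were MS replicate 2, in which all 4 genes were below their means, and MS replicate 3, with Trpm7 at -0.36 and Pkd2 at 0.29. Piezo1 was between 33.8 and 43.0 FPKM in the 3 libraries that stood apart and between 21.8 and 33.0 FPKM in the other 6. Lrrc8a was between 3.43 and 5.23 FPKM in the former and between 6.81 and 8.78 FPKM in the latter. Kcnk2, which was near 0 throughout, was at most 0.0369 FPKM in the former and at least 0.0449 FPKM in the latter. The ranges of the other channel genes overlapped. How many of all genes are separated along this split was not computed, so the separation is not shown to be particular to these channel genes.

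The same libraries also differed in how FPKM followed gene GC content. The correlation across genes, which are not independent replicates, between the deviation of a library and GC content was -0.64 in MS replicate 1, 0.45 in CTL replicate 1 and 0.54 in Blebb. replicate 2. It lay between -0.54 and 0.55 in the remaining libraries. Among the 8 channel genes, the longest GENCODE M21 transcript of Trpm7 had the lowest GC content, at 40.1%, and that of Pkd2 the next, at 49.0%. The other 6 lay between 54.0% for Trpv2 and 59.0% for Piezo1. With the GC trend removed, the deviation of Trpm7 went from -1.23 to -0.71 in CTL replicate 1 and from 1.27 to 0.68 in MS replicate 1.

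**Figure D3:**
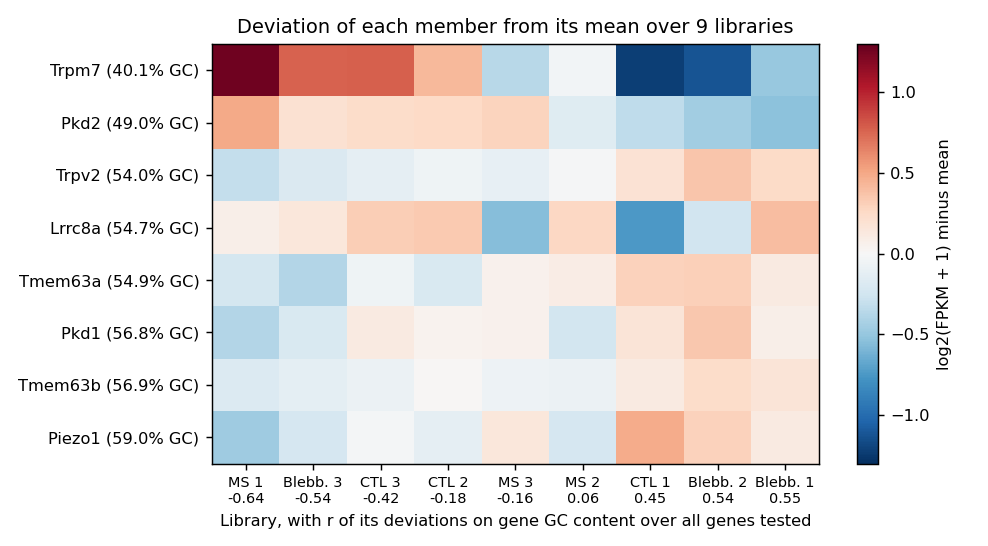
Deviation of log2(FPKM + 1) of 8 channel genes from the mean of each gene over 9 libraries. Rows are genes from low to high GC content of the longest transcript, and columns are libraries in order of the correlation of their deviations with gene GC content, printed under each name. In MS 1 Trpm7 and Pkd2 are above their means and Piezo1 and Trpv2 below, and in Blebb. 2 the sides are exchanged. Lrrc8a is lowest in CTL 1, MS 3 and Blebb. 2.

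Genes with the most similar pattern were sought for the 6 channel genes averaging at least 5 FPKM, by Pearson's r over 9 libraries among 7003 other genes at this level. For Piezo1 these were Wiz (r = 0.991 over 9 libraries, 0.990 over the 6 without those that stood apart) and Phc1 (r = 0.987 and 0.998). For Trpv2 they were Tbc1d25 (0.986) and Cyp4f16 (0.984), for Tmem63b Gga1 (0.990) and Zfp213 (0.984), and for Tmem63a Gemin7 (0.989) and Glb1 (0.961). Pkd1 was closest to Mtor (0.987) and Ano8 (0.977). For Lrrc8a they were Tedc2 (0.989) and Cdk2ap1 (0.987), which fell to 0.803 and 0.929 over the 6 libraries. A total of 381 genes had r of at least 0.9 with Piezo1 and 377 with Lrrc8a, so that a high r with either gene was common. All points share the libraries and their dependence on GC content.

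Subunits of the volume-regulated anion channel were measured as a family, because LRRC8A forms channels together with LRRC8B to LRRC8E and the partner sets which solutes pass. Lrrc8d, whose protein favours the passage of organic osmolytes, had the highest RNA level of the family. Its mean was 13.0 FPKM, from 9.08 to 18.1 FPKM. Lrrc8a had a mean of 6.66 FPKM, Lrrc8b of 3.57 FPKM and Lrrc8c of 2.27 FPKM, and Lrrc8e was at most 0.0493 FPKM in any library. The share of Lrrc8a in the summed FPKM of the 5 genes was 13.0, 32.8 and 30.0% in CTL replicates 1 to 3. It was 26.9, 36.7 and 14.2% in MS and 35.5, 19.7 and 30.4% in Blebb. The group means of 25.3 ± 10.7%, 25.9 ± 11.3% and 28.5 ± 8.07% (SD, n = 3) differed by less than the spread between replicates (exact two-sided permutation tests, p between 0.6 and 0.9, with no p under 0.1 possible). In each group the lowest share was in the library that stood apart, and the part of the stress response genes in this was not tested. The share of Lrrc8d was between 62.2 and 68.7% in those 3 libraries and between 41.7 and 44.1% in the other 6. How common such a separation is among all genes was not computed. A share within a library does not depend on the scaling of that library. It does depend on the fragments assigned to Lrrc8a, whose annotated exons share 68.3% of their bases with other genes. Overlaps of the other LRRC8 genes were not computed.

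**Figure D4:**
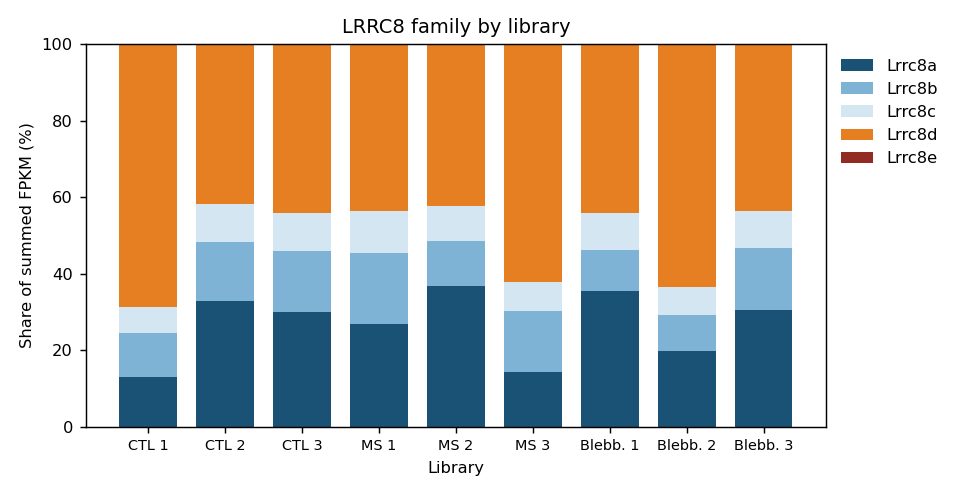
Share of each LRRC8 gene in the summed FPKM of the family, one bar for each library. The share of Lrrc8d is above 60% in CTL 1, MS 3 and Blebb. 2 and below 45% in the other libraries, and Lrrc8a is lowest in the same 3.

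Other families were dominated by single members to different degrees. Piezo2, the other PIEZO channel, was at most 0.0105 FPKM, and Piezo1 made up between 99.95 and 100% of the summed FPKM of both. Tmem63b made up 69.5 ± 3.06%, 68.3 ± 1.83% and 70.6 ± 2.53% (SD, n = 3) of the sum of Tmem63a and Tmem63b in CTL, MS and Blebb. Its share was between 66.6 and 73.3% in all 9 libraries. Tmem63c, the last gene of the family, was at most 0.0253 FPKM. Pkd2 made up 23.8 ± 5.99% of the polycystin pair in CTL, 30.9 ± 7.70% in MS and 19.8 ± 9.38% in Blebb. (SD, n = 3), with single libraries from 13.7 to 39.6%. The exact two-sided permutation tests of the Pkd2 share gave p between 0.3 and 0.7 in the 3 comparisons, where no p under 0.1 is possible.

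Among 35 relatives of the 10 genes, 5 reached 1 FPKM on average and 10 were listed at 0 in all libraries. Trpm1, the TRP channel known as melastatin from melanocytes, was far above the others, with a mean of 212 FPKM. It was at 401, 138 and 119 FPKM in CTL, at 80.6, 93.7 and 289 FPKM in MS and at 166, 476 and 148 FPKM in Blebb. The high library of each group was the one that stood apart, and the log2FC values were -0.52 in MS against CTL and 0.80 in Blebb. against MS, with an SE of 0.65 each (adjusted p = 1.00 and 0.897, limma). The part of the stress response genes, whose summed level was high in the same libraries, was not tested. How many of all genes are high in these libraries was not computed. Trpm4, a sodium channel that calcium activates, had a mean of 3.49 FPKM. Trpm6, the closest relative of Trpm7 with a kinase of its own, was at most 0.0123 FPKM. The 10 relatives listed at 0 were 8 two-pore potassium channels of the KCNK family, Trpm8 and Trpv5, and no member of the KCNK list reached a mean of 1 FPKM.

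A further list held 34 genes, gathered as channels that mechanical force or swelling may open and their relatives, and 33 of them were found by symbol. A place in this list does not show that the protein is gated in this way. The missing one, Tmem206, is an older name of Pacc1, which was found. A mean of at least 1 FPKM was reached by 10, and 9 were listed at 0. Tmc6 was the highest at 66.2 FPKM, from 53.3 to 84.0 FPKM, followed by Tmem120a at 42.0 FPKM and Tmc8 at 19.1 FPKM. TMC6 and TMC8 are the EVER proteins of the TMC family, and TMEM120A, also called TACAN, was proposed as a mechanosensitive protein. Panx1, a large-pore channel that releases ATP, had a mean of 15.3 FPKM, and Pacc1, an anion channel that acid opens, of 15.0 FPKM. Tmc6 and Tmem120a were thus above Piezo1 in mean level.

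**Figure D5:**
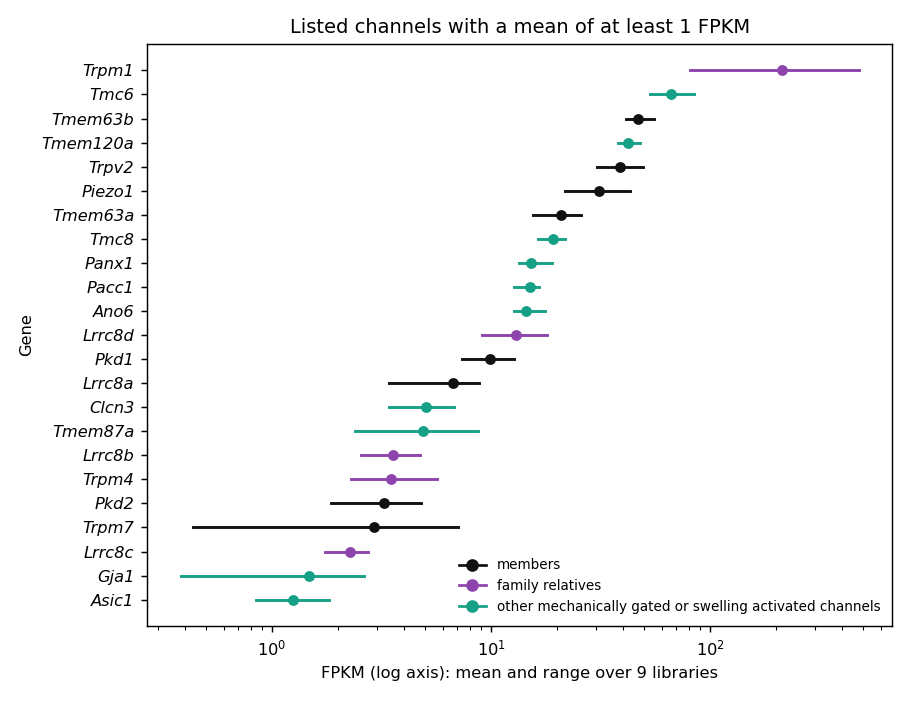
Listed channels averaging at least 1 FPKM. Points are means and lines reach from the lowest to the highest of 9 libraries, on a log axis. Trpm1 and Tmc6 lie above the 10 channel genes, of which Tmem63b is the highest, and Trpm7 has the longest line relative to its level.

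Tmc8 was separated without overlap between MS and each of the other groups, at 19.2, 20.8 and 21.3 FPKM in CTL, 16.3, 17.7 and 16.3 FPKM in MS and 21.8, 19.8 and 18.8 FPKM in Blebb. The MS libraries were the 3 lowest of the 9. Its log2FC was -0.27 in MS against CTL (SE 0.11, unadjusted p = 0.0435, adjusted p = 1.00, limma) and 0.25 in Blebb. against MS (unadjusted p = 0.0579, adjusted p = 0.897, limma). With the GC trend removed the values were -0.17 and 0.11. It was the only gene of the 3 wider lists with an unadjusted p under 0.05 in MS against CTL, and 0 of 10 tested in its list had an adjusted p under 0.05 in any comparison. For the relatives this number was 0 of 5, and for 16 partners and volume regulators it was 0 of 13 (limma, adjusted over 10109 genes). The median log2FC in MS against CTL was -0.017 over the list of Tmc8, -0.053 over the relatives and -0.032 over the partners and volume regulators.

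Partners and volume regulators were expressed more widely, with 13 of 16 at a mean of at least 1 FPKM. Slc6a6, the taurine transporter that fills cells with osmolyte, was the highest at 75.8 FPKM, from 43.6 to 103 FPKM. Mdfi, a member of the MyoD family inhibitors that bind PIEZO channels, had a mean of 72.7 FPKM. Slc12a7, a potassium and chloride cotransporter that swelling activates, had a mean of 61.1 FPKM, and Stom, the membrane protein stomatin, of 35.2 FPKM. Slc12a7 was lower in each Blebb. library, at 59.9, 55.4 and 51.8 FPKM, than in any CTL library, at 64.7, 63.4 and 64.8 FPKM. The log2FC of -0.21 (SE 0.14) had an adjusted p of 1.00 (limma). Wnk1, a kinase that responds to chloride and cell volume, had a mean of 15.1 FPKM, from 8.92 to 22.5 FPKM, and overlapped between the groups.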

How the data were processed

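RNA was sequenced from 9 B16 libraries, 3 in each of 3 groups that were assigned from the sample labels. The authors deposited 1 FPKM value per gene and library. For CTL replicate 1 the column is headed by the sample name and was read as FPKM, because its sum and range were like those of the others. The submitters' processing notes name GRCm38 and mm10, and the aligner and counting program are not given in the sources used here. Low values had no common step, so the depth and the counting error are unknown, and no count test was used.

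Genes averaging at least 1 FPKM (10109 of 22972) were tested as log2(FPKM + 1) in limma 3.58.1 (R 4.3.3) with a variance trend and 3 groups in 1 fit. The p-values were adjusted by Benjamini-Hochberg over all genes tested, with a threshold of 0.05. Fold changes are on the log2(FPKM + 1) scale, which understates changes of low genes. Genes under the minimum and family shares were tested by exact two-sided permutation (scipy 1.17.1). The GC trend was removed by a loess curve for each library, with GC content known for 95.6% of genes tested. The fit was tested on simulated data, and the sign-flip test was checked on fixed values with a known p.

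The channel genes and lists were chosen with earlier results of these data known. The named genes are the 10 channel genes, the 5 highest of each of 3 wider lists, fixed relatives, and the 2 genes most alike in pattern to each channel gene above 5 FPKM. Tmc8 was among the 5 highest of its list. Replicate numbers were checked as pairs. The correlation of deviations was between -0.78 and 0.84 over 9 same-numbered pairs, and 2 of them were above 0.1, so the numbers were not used to pair libraries.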

Additional observations from a re-analysis of the deposited data

How the results depend on the processing

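Without any single library, 7 of 8 neighbouring pairs differed in level (exact permutation, adjusted p under 0.05). Their order was taken from the libraries kept, so this describes only how steadily a ratio repeats. The number of channel genes with an adjusted p under 0.05 (limma) was 0 in all 3 comparisons under each alternative run, leaving out each library included. With the replicate number as a block the number was also 0, and 14, 119 and 10 genes of all tested had an unadjusted p under 0.05 in MS against CTL, Blebb. against MS and Blebb. against CTL, against 16, 126 and 9 without the block. Only 2 of 9 libraries correlated best with a library of their own number. Those counts over all genes moved widely with the setting. In MS against CTL they lay between 7 without MS replicate 1 and 199 with the GC trend removed and a library block. In Blebb. against MS they lay between 34 without MS replicate 1 and 934 without Blebb. replicate 3. In Blebb. against CTL they lay between 7 without Blebb. replicate 1 and 183 with no minimum level. Without MS replicate 2, 1 gene of all tested passed after adjustment in MS against CTL and 1 in Blebb. against MS.

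Of 13 alternatives besides leaving out 1 library, 8 leave the fold change as it is by construction or repeat the value with the GC trend removed. Under the other 5, 111 of 120 log2 fold changes of channel genes kept their direction and 9 did not. Without the 3 libraries that stood apart, the values that turned were Tmem63a 0.062 and Pkd2 -0.083 in MS against CTL, Tmem63a -0.066 in Blebb. against MS, and Piezo1 0.022 and Lrrc8a -0.057 in Blebb. against CTL. After removal of the GC trend, also combined with either block, they were Tmem63a 0.035 and Lrrc8a 0.032 in MS against CTL and Tmem63a -0.066 in Blebb. against MS. With median-of-ratios factors it was Tmem63a at 0.030 in Blebb. against CTL. Tmc8, which is not one of the channel genes, was then at 0.011 in that comparison. The cause was not tested. Leaving out 1 library of the groups compared turned 21 of 144 values. The ranges in MS against CTL were -0.15 to 0.10 for Tmem63a, -0.31 to 0.69 for Trpm7, -0.042 to 0.33 for Pkd2 and -0.40 to 0.20 for Lrrc8a. In Blebb. against MS they were -0.11 to 0.24 for Tmem63a and -0.073 to 0.34 for Lrrc8a. In Blebb. against CTL they were -0.16 to 0.14 for Piezo1, -0.15 to 0.19 for Tmem63a, -0.88 to 0.15 for Trpm7, -0.17 to 0.10 for Pkd1, -0.23 to 0.31 for Lrrc8a and -0.077 to 0.028 for Tmc8. A minimum mean of 5 FPKM left Pkd2 and Trpm7 untested.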
